A study of Homo sapiens with 6 samples.

Results

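The actin cytoskeleton and contractility genes were taken as 39 genes named by symbol, and all 39 were found among the 32679 genes of the expression table of PQBP1-depleted HEY cells. They comprised 3 actins, 5 tropomyosin and caldesmon genes, 5 calponin and transgelin genes, 7 genes of non-muscle myosin II and its kinase, 4 actinins and filamins, 8 focal adhesion and stress fibre genes, 6 genes of filament assembly and disassembly, and the transcription factor SRF. HEY is a human ovarian cancer cell line, and gene expression was measured by paired-end RNA-seq of poly(A) RNA in 3 samples with a control hairpin (shNC) and 3 samples with a hairpin against the splicing factor PQBP1 (shPQBP1). Per the labels, all 6 samples were taken at day 3, the shPQBP1 samples received 1 µg/ml doxycycline and the shNC samples no treatment, so that hairpin and doxycycline cannot be told apart. The hairpins were carried by lentivirus in puromycin-selected stable lines, and whether a line was a pool or a clone is not given in the sources used here.

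Actin polymerises into filaments that form the cell cortex, protrusions and stress fibres. Tropomyosins coat the filaments and govern which other proteins bind them, non-muscle myosin II pulls on them once its regulatory light chain is phosphorylated, and actinins, filamins and adhesion proteins link them to one another and to the matrix. Many of these genes are controlled by SRF, which binds a DNA motif named the CArG box and works with actin-sensing MRTF coactivators or with ETS-family partners such as ELK3.

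The promoter sequences below are shown because 7 of the 35 members with a promoter window in RefSeq (GRCh38.p14) held a CArG box in it, and they include members that differed between the groups. A window ran from 250 bases before to 50 bases after an annotated gene start. The motif is CC and GG around a run of A and T, which reads as the same motif on both strands. A box was found in 20% of these members, in 10 of 133 other actin pathway genes (7.52%), in 124 of 8156 genes tested (1.52%) and in 438 of all 27305 genes with a window (1.6%). Each line gives the gene, the position, the strand and 30 bases with the box in capitals.

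TPM4, chr19:16067355-16067384, plus strand: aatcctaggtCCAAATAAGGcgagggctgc
CNN2, chr19:1026509-1026538, plus strand: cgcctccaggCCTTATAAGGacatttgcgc
SRF, chr6:43171229-43171258, plus strand: ctggggctcaCCATATAAGGagcggcctcg
SRF, chr6:43171249-43171278, plus strand: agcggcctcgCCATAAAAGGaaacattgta
ACTG1, chr17:81512874-81512903, minus strand: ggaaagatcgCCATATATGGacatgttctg
ACTN1, chr14:68977718-68977747, minus strand: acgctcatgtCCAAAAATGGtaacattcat
FLNA, chrX:154374709-154374738, minus strand: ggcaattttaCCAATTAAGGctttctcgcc
MYLK, chr3:123620623-123620652, minus strand: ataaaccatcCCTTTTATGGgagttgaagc

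SRF itself had 2 boxes, at positions -30 and -10 from 1 of its 2 annotated starts, and its other window had none. The TPM4 box stood at -173 from 1 of its 3 annotated starts, inside the span of the gene, and its other 2 windows had none. ACTN1 had a box in 1 of 4 windows. The boxes of ACTN1, ACTG1 and MYLK also lay inside the spans of their genes. MYLK spans 123610049 to 123884332 on the minus strand, so its box lay near the end of the gene, far from its first start. ACTB, TAGLN, MYL9 and MTSS1 had no window in the table. A match of letters is a description of the window and not evidence that SRF binds there. As given below, TPM4 was higher in the shPQBP1 samples, the differences of CNN2, SRF and ACTN1 were downward with an unadjusted p under 0.05, and ACTG1, FLNA and MYLK did not pass that threshold.

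PQBP1 was read first as a check of the labels. It was 7.18, 6.67 and 6.93 FPKM (fragments per kilobase of transcript, normalised by library size) in shNC samples 1, 2 and 3, and 1.68, 1.72 and 1.44 FPKM in shPQBP1 samples 1, 2 and 3. The read depth is unknown, since FPKM carries no counts and no steps of whole reads were seen among the low values. Of the 6 samples, shNC 1 stood apart: its deviation from the other shNC samples correlated across genes with the GC content of the transcript (Spearman's correlation 0.613), and its log2 values correlated with those of the other 5 samples at a Pearson's r of 0.926 to 0.955. The same measure was -0.518 for shNC 2, -0.44 for shNC 3, and -0.325, 0.403 and -0.113 for shPQBP1 samples 1, 2 and 3. For members at an unadjusted p under 0.05, the value without shNC 1 is given where it moved the log2 fold change by over 1.5 times or changed a call. Among cell type markers, the keratins KRT7, KRT8 and KRT18 lay between 52.8 and 94.6 FPKM, whereas the carcinoma markers CDH1 and MUC16 were at or below 0.06 FPKM. PAX8 was 12.33 to 15.7 FPKM in shNC and 18.41 to 24.08 FPKM in shPQBP1 samples, and WT1 was 0.63 to 0.71 and 0.31 to 0.45 FPKM, so that these markers differed in opposite directions without overlap. Of 9 epithelial and ovarian carcinoma markers 5 had a mean of at least 1 FPKM, and their sum was 208.3 to 244.6 in shNC and 220.0 to 245.0 in shPQBP1 samples. Smooth muscle cells express many of the genes studied here, but their markers MYH11, DES, LMOD1 and MYOCD were at or below 0.06 FPKM in every sample, and only SMTN of the 6 markers measured had a mean of at least 1 (ACTG2 was not analysed here). The 6 smooth muscle markers summed to 7.92 to 12.01 FPKM in shNC and 8.5 to 10.32 FPKM in shPQBP1 samples. The 7 fibroblast markers summed to 0.47 to 1.22 and 0.27 to 1.1 FPKM, none with a mean of at least 1. Of the leukocyte markers PTPRC was listed at 0 throughout while CD68 was 9.12 to 15.57 FPKM in shNC and 12.14 to 21.16 FPKM in shPQBP1 samples (CD3E was not analysed here). Of the endothelial markers, CDH5 was 2.11 to 2.96 FPKM in shNC and 3.1 to 3.64 FPKM in shPQBP1 samples, PECAM1 was 0.23 to 0.25 and 0.02 to 0.06 FPKM, and the 3 markers summed to 2.39 to 3.2 and 3.13 to 3.73 FPKM. The part of these markers in the results was not tested. In bulk RNA, a change in the share of cells that express a gene and a change in its RNA per cell cannot be told apart.

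Knockdown of PQBP1 went with a rise of 3 actin cytoskeleton genes and no fall at an adjusted p under 0.05. TPM4, a cytoskeletal tropomyosin, rose 2.31-fold. MTSS1, a membrane-bending protein that binds actin monomers, and MYL12A, a regulatory light chain of non-muscle myosin II, rose by smaller amounts. CNN2, a calponin, was the member with the largest decrease, at an adjusted p just above the threshold. Of the 38 members tested, 25 were within 1.2-fold of the shNC level. The plot of fold changes by role shows all 38.

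**Figure D1:**
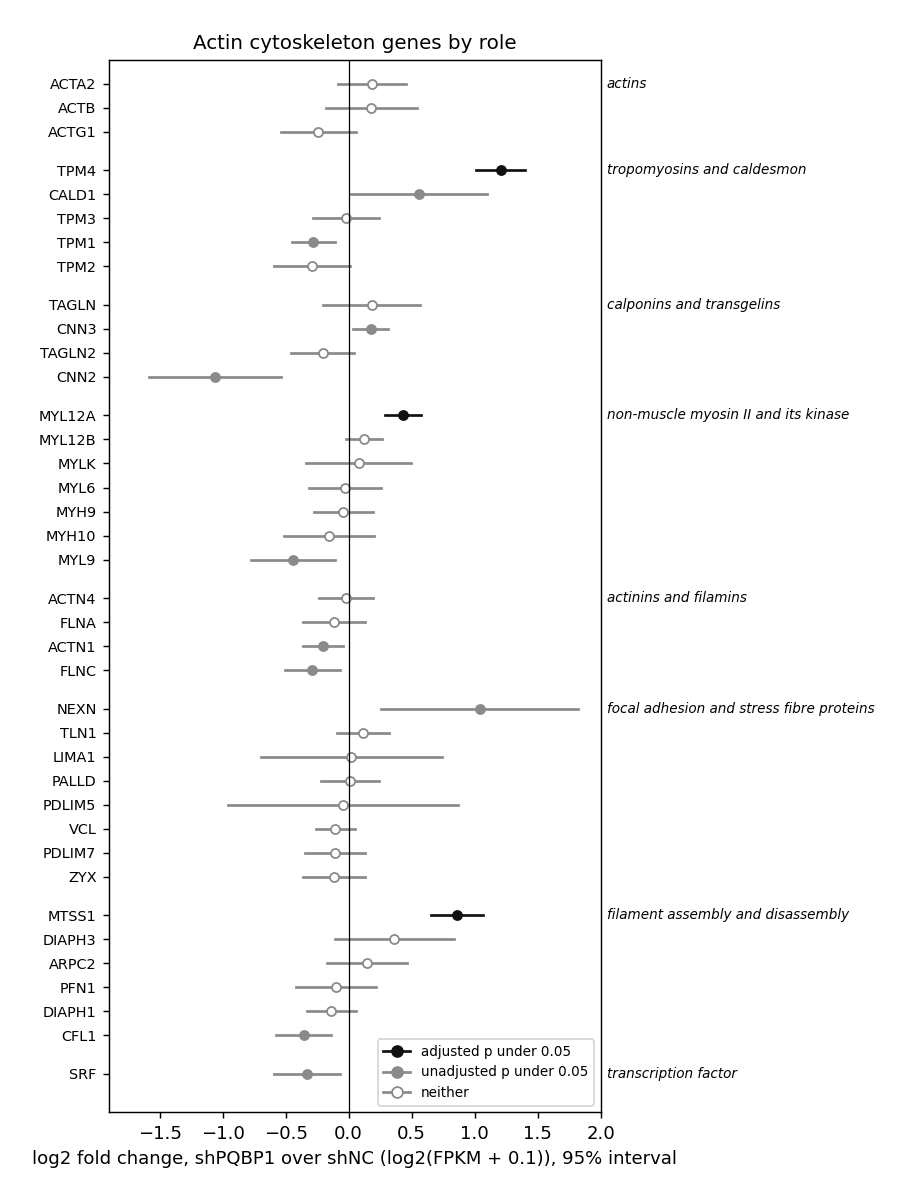
Log2 fold change of each tested actin cytoskeleton gene, shPQBP1 over shNC, on the log2(FPKM + 0.1) scale, grouped by role; points are the estimates from limma over 3 samples a group and bars their 95% intervals. TPM4, NEXN and MTSS1 lie farthest to the right and CNN2 farthest to the left, and 16 members are above and 22 below 0.

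A gene was tested where its mean over the 6 samples was at least 1 FPKM, with limma on log2(FPKM + 0.1), two-sided, and Benjamini-Hochberg adjustment over all 11413 genes tested. On this scale the changes of weakly expressed genes come out too small. CNN1, the smooth muscle calponin, was at 0 to 0.16 FPKM and was not tested, and each of the other 38 members reached a mean of 1 FPKM in both groups. At an adjusted p under 0.05, 3 of 38 members (7.89%) differed, all higher in shPQBP1, beside 2.91% of all genes tested (1.73% higher and 1.18% lower). Taken by unadjusted p under 0.05, 13 members (34.2%) differed, 6 upward and 7 downward, beside 23.6% of all genes (11.9% higher and 11.7% lower). By the call rule in the study's methods, more than 2-fold either way and an unadjusted p under 0.05, 3 members were counted, TPM4 and NEXN higher and CNN2 lower, beside 1.52% of all genes (0.973% higher and 0.543% lower). The groups did not overlap in 17 members (44.7%), 7 higher and 10 lower, beside 34.4% of all genes (17.3% higher and 17.1% lower). The median log2 fold change was -0.04 for the members and 0.02 for all genes tested. When samples were left out one by one, the count at an adjusted p under 0.05 lay between 1 and 4, with 1 member left without shNC 3, shPQBP1 2 or shPQBP1 3. The count of members at an unadjusted p under 0.05 was 6 without shPQBP1 1. The share of all genes at that threshold was not computed with samples left out, so the 6 cannot be read against it. Without shPQBP1 1 the adjusted count of all genes also fell, from 332 to 46. Among members that did not pass, leaving out shNC 1 moved the log2 fold change from 0.18 to 0.29 for ACTB, -0.24 to -0.15 for ACTG1, -0.21 to -0.11 for TAGLN2, 0.18 to 0.33 for TAGLN, 0.15 to 0.28 for ARPC2, 0.36 to 0.16 for DIAPH3 and -0.16 to -0.27 for MYH10. Other members moved too, among them LIMA1 (0.02 to -0.27), PDLIM5 (-0.05 to -0.30), FLNA and ZYX (-0.12 to -0.05 each), PDLIM7 (-0.11 to -0.02), DIAPH1 (-0.14 to -0.09) and PFN1 (-0.10 to 0.03).

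Actins are the subunits of the filament, and ACTB, cytoplasmic beta-actin, had the highest mean of all members. ACTB was 448.94, 381.49 and 338.47 FPKM in shNC samples 1, 2 and 3 and 400.41, 523.82 and 403.32 FPKM in shPQBP1 samples 1, 2 and 3. The groups overlapped, and the log2 fold change was 0.18 (95% interval -0.18 to 0.54). ACTG1, cytoplasmic gamma-actin, was 314.29, 298.16 and 231.55 FPKM in shNC and 245.73, 230.78 and 232.58 FPKM in shPQBP1 samples. It overlapped between the groups through shNC 3, with a log2 fold change of -0.24 (95% interval -0.54 to 0.06). ACTA2, the smooth muscle actin, was far lower, at 6.98 to 8.41 FPKM in shNC and 7.86 to 9.53 FPKM in shPQBP1 samples. The summed level of ACTB and ACTG1 was 671.0 ± 96.9 FPKM in shNC and 678.9 ± 65.8 FPKM in shPQBP1 samples (SD, n = 3 each), so the pool of cytoplasmic actin mRNA differed by less than the spread between samples. ACTB took 58.8%, 56.1% and 59.4% of this sum in the shNC samples and 62.0%, 69.4% and 63.4% in the shPQBP1 samples. Every shPQBP1 sample was above every shNC sample in this share (exact permutation test, two-sided, p = 0.1, which is the lowest p possible with 3 samples a group). The coding sequences of ACTB and ACTG1 were 91.3% identical, and 30.1% and 21.9% of the 31-base words of their transcripts also occurred in another gene, so how reads were split between actin genes bears on these shares and was not tested.

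Tropomyosins are coiled-coil proteins that lie along the filament, and TPM4 was the 1 of their 4 genes that passed the adjusted test. TPM4 (ENSG00000167460, chromosome 19 of hg38, 16067021 to 16103002) was 61.14, 53.88 and 53.95 FPKM in shNC samples 1, 2 and 3 and 132.5, 133.84 and 123.64 FPKM in shPQBP1 samples 1, 2 and 3. The groups were far apart, and the samples within each were close. The group means were 56.3 ± 4.17 and 129.99 ± 5.54 FPKM (SD, n = 3 each). The log2 fold change was 1.21 (standard error of the fit, SE, 0.08, limma adjusted p = 0.00389), a fold of 2.31 with a 95% interval from 2.02 to 2.64. By p, TPM4 ranked 10 of the 11413 genes tested, and by size of increase 93. When samples were left out one by one, its adjusted p stayed between 0.00507 and 0.0335, and after correction for GC content and length the log2 fold change was 1.25 (adjusted p = 0.000853). Of its transcript's 31-base words, 48.9% also occurred in another gene, most of them in the pseudogene TPM4P2 (35.2%), so the level of TPM4 is uncertain to that extent.

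No other tropomyosin rose. TPM1 was 16.53, 15.71 and 16.01 FPKM in shNC and 13.48, 13.52 and 12.69 FPKM in shPQBP1 samples. All shPQBP1 values were lower, with a log2 fold change of -0.28 (SE 0.07, limma unadjusted p = 0.00706, adjusted p = 0.0939). TPM2 was 2.65, 2.97 and 3.03 FPKM in shNC and 2.52, 2.49 and 2.03 FPKM in shPQBP1 samples, again without overlap but at a limma adjusted p of 0.222. TPM3 was 37.87, 30.65 and 33.07 FPKM in shNC and 33.29, 36.18 and 30.65 FPKM in shPQBP1 samples. Its groups overlapped, with a log2 fold change of -0.02 (95% interval -0.28 to 0.24).

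The 4 tropomyosin genes together were 118.19, 103.21 and 106.06 FPKM in shNC and 181.79, 186.03 and 169.01 FPKM in shPQBP1 samples. TPM4 was the most abundant tropomyosin in both groups, and its share of the sum was 51.6% ± 0.678 in shNC and 72.7% ± 0.635 in shPQBP1 samples (SD, n = 3 each). The shares of TPM3 (30.97% ± 1.19 and 18.6% ± 0.713), TPM1 (14.8% ± 0.68 and 7.40% ± 0.121) and TPM2 (2.66% ± 0.361 and 1.31% ± 0.0961) were lower in the shPQBP1 samples. The 4 shares sum to 100%, so those of TPM1, TPM2 and TPM3 are not separate results, and the FPKM of TPM3 itself overlapped between the groups. The share of TPM4 did not overlap (exact permutation test, p = 0.1, the lowest possible). The order of the levels, TPM4, TPM3, TPM1 and TPM2, was the same in all 6 samples.

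**Figure D2:**
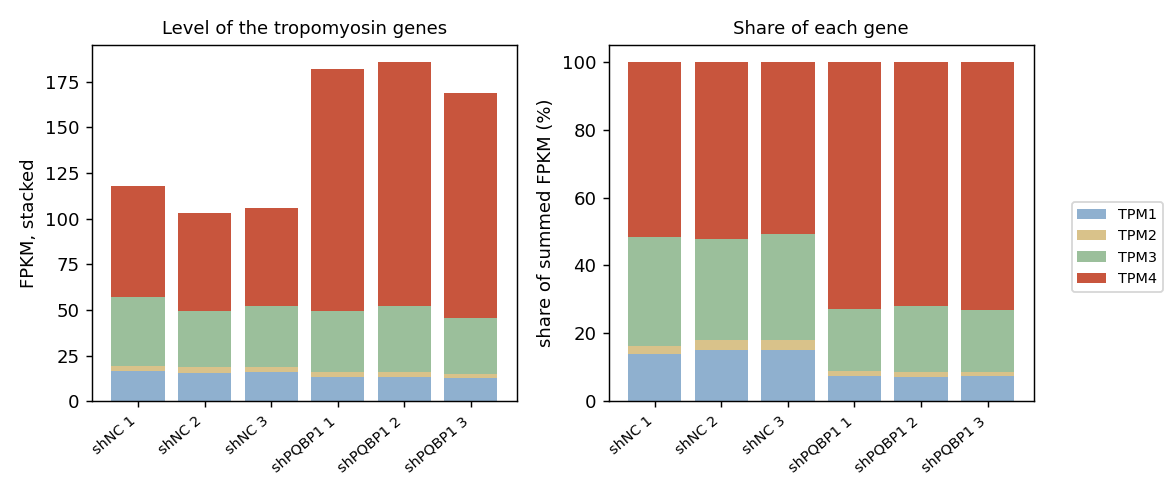
Left, FPKM of TPM1 to TPM4 stacked for each of the 6 samples; right, the share in percent of each gene in their sum. The shPQBP1 samples reach 169.01 to 186.03 FPKM against 103.21 to 118.19 FPKM in shNC, and TPM4 takes 71.95% to 73.16% of the sum against 50.87% to 52.2%.

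CALD1, caldesmon, binds actin, tropomyosin and myosin and restrains myosin activity. It was 4.26, 7.01 and 7.37 FPKM in shNC and 10.07, 8.19 and 8.67 FPKM in shPQBP1 samples. The shPQBP1 values were all higher, with a log2 fold change of 0.56 (SE 0.22, limma unadjusted p = 0.0438, adjusted p = 0.201). The lowest value was that of shNC 1, and without this sample the log2 fold change was 0.31.

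Calponins and transgelins are related actin-binding proteins. CNN2 was 4.96, 8.4 and 8.44 FPKM in shNC and 3.1, 3.42 and 3.49 FPKM in shPQBP1 samples. Every shPQBP1 value was lower, and shNC 1 lay between the other shNC samples and the shPQBP1 samples. The log2 fold change was -1.06 (SE 0.22, limma adjusted p = 0.0592), and without shNC 1 it was -1.31 with an adjusted p of 0.00744. After correction for GC content and length it was -0.86 (adjusted p = 0.123). Of the 31-base words of the CNN2 transcript, 24.1% also occurred in another gene, so its level is uncertain to that extent. CNN3, by far the most abundant calponin, was 105.9, 107.93 and 106.47 FPKM in shNC and 118.77, 121.08 and 121.53 FPKM in shPQBP1 samples. Its groups were tight and apart, but the log2 fold change was only 0.17 (SE 0.06, limma unadjusted p = 0.0196, adjusted p = 0.141). CNN2 thus made up 6.34% ± 1.63 of the summed calponin FPKM in shNC and 2.69% ± 0.133 in shPQBP1 samples, without overlap (exact permutation test, p = 0.1). TAGLN2, the main transgelin of these cells, was 185.19, 151.36 and 151.19 FPKM in shNC and 133.37, 137.48 and 150.44 FPKM in shPQBP1 samples. The groups were separate by less than 1 FPKM, with a limma adjusted p of 0.273. TAGLN, a marker of contractile smooth muscle, was 2.03, 1.47 and 1.47 FPKM in shNC and 1.91, 1.76 and 1.95 FPKM in shPQBP1 samples, overlapping, and 82.5% of its transcript's 31-base words occurred in other genes. The share of TAGLN in the transgelin sum did not overlap (1.00% ± 0.0704 in shNC and 1.32% ± 0.0812 in shPQBP1 samples, exact permutation test, p = 0.1).

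Non-muscle myosin II consists of 2 heavy chains with essential and regulatory light chains. MYL12A (ENSG00000101608, chromosome 18 of hg38, 3247481 to 3256236) was 100.42, 102.0 and 95.25 FPKM in shNC samples 1, 2 and 3 and 132.89, 134.62 and 134.28 FPKM in shPQBP1 samples 1, 2 and 3. The shPQBP1 samples lay within 2 FPKM of each other and above all shNC samples. The log2 fold change was 0.43 (SE 0.06, limma adjusted p = 0.0241), and after correction for GC content and length it was 0.36 (adjusted p = 0.0143). Leaving out one sample at a time, the adjusted p lay between 0.0219 and 0.123, and leaving out any sample other than shNC 1 ended the call. MYL12B, the neighbouring and near-identical gene (coding identity 95.7%), was 245.34, 266.13 and 254.16 FPKM in shNC and 272.57, 276.72 and 281.98 FPKM in shPQBP1 samples. It too was higher in each shPQBP1 sample, with a log2 fold change of 0.12 (95% interval -0.02 to 0.26, limma adjusted p = 0.27). Of the 31-base words of MYL12A, 18.4% were shared with MYL12B, so the division of reads between them is uncertain.

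MYL9, the regulatory light chain of smooth muscle type, differed in the opposite direction. It was 10.96, 8.43 and 8.34 FPKM in shNC and 6.09, 7.42 and 6.73 FPKM in shPQBP1 samples, with no overlap. The log2 fold change was -0.44 (SE 0.14, limma unadjusted p = 0.0181, adjusted p = 0.137), and without shNC 1, the highest sample, it was -0.31. The 3 regulatory light chains summed to 356.72, 376.56 and 357.75 FPKM in shNC and 411.55, 418.76 and 422.99 FPKM in shPQBP1 samples. Within this sum MYL9 took 2.55% ± 0.457 in shNC and 1.61% ± 0.147 in shPQBP1 samples, MYL12A 27.3% ± 0.783 and 32.1% ± 0.282, and MYL12B 70.2% ± 1.22 and 66.3% ± 0.303, none overlapping (exact permutation test, p = 0.1 each). These shares too depend on each other, and the FPKM of MYL12B itself was not lower.

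The motor itself and its other partners did not pass the test. MYH9, the main heavy chain, was 136.96, 122.14 and 121.5 FPKM in shNC and 119.35, 137.1 and 113.63 FPKM in shPQBP1 samples, with a log2 fold change of -0.04 (95% interval -0.28 to 0.19). MYH10, the heavy chain of myosin IIB, was 5.8, 7.46 and 7.37 FPKM in shNC and 5.63, 7.18 and 5.66 FPKM in shPQBP1 samples, also overlapping. The share of MYH10 in the heavy chain sum overlapped too (5.18% ± 0.967 in shNC and 4.74% ± 0.236 in shPQBP1 samples, exact permutation test, p = 0.4). MYL6, the essential light chain, ranged from 86.5 to 113.78 FPKM in shNC and from 91.52 to 100.98 FPKM in shPQBP1 samples. MYLK, the kinase that phosphorylates the regulatory light chain, ranged from 2.45 to 3.66 FPKM in shNC and from 2.83 to 3.24 FPKM in shPQBP1 samples.

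**Figure D3:**
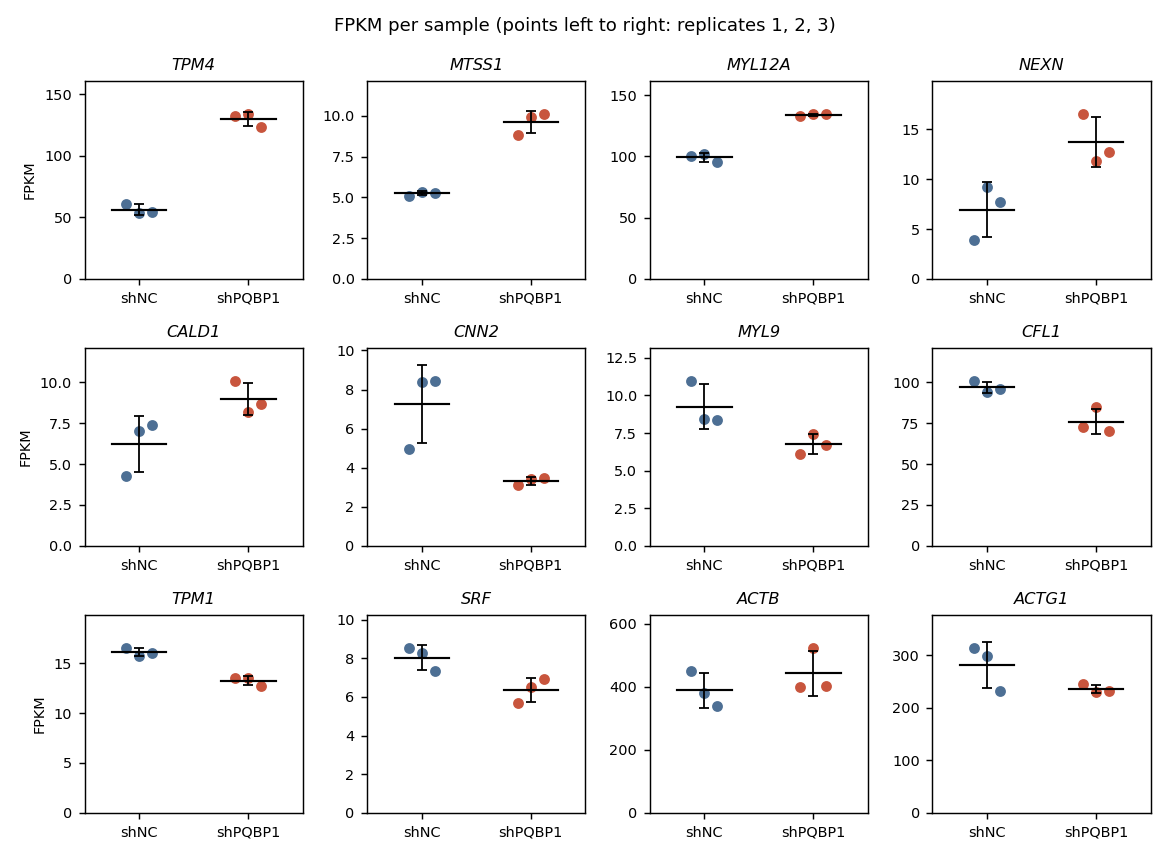
FPKM of 12 actin cytoskeleton genes in each sample; points from left to right are replicates 1, 2 and 3, lines the group means and bars the SD (n = 3), and every axis starts at 0. TPM4, MTSS1 and MYL12A have tight groups far apart, shNC 1 lies apart from the other shNC samples in NEXN, CALD1 and CNN2, and ACTB and ACTG1 overlap between the groups.

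Actinins and filamins crosslink the filaments. ACTN1 was 42.1, 39.58 and 41.32 FPKM in shNC and 35.01, 35.01 and 36.67 FPKM in shPQBP1 samples, lower in every shPQBP1 sample, with a log2 fold change of -0.20 (SE 0.07, limma unadjusted p = 0.02, adjusted p = 0.141). FLNC was 39.19, 34.89 and 35.37 FPKM in shNC and 28.43, 32.63 and 28.59 FPKM in shPQBP1 samples, likewise without overlap, with a log2 fold change of -0.29 (SE 0.09, limma unadjusted p = 0.0178, adjusted p = 0.136). Their more abundant relatives overlapped between the groups. ACTN4 was 109.36, 114.18 and 96.91 FPKM in shNC and 98.58, 111.26 and 105.52 FPKM in shPQBP1 samples. FLNA was 104.87, 93.07 and 88.09 FPKM in shNC and 82.36, 97.51 and 84.08 FPKM in shPQBP1 samples. FLNC took 27.7% ± 0.817 of the filamin sum in shNC and 25.4% ± 0.294 in shPQBP1 samples (no overlap, exact permutation test, p = 0.1), whereas the share of ACTN1 among the actinins overlapped (27.8% ± 2.08 and 25.3% ± 1.21, exact permutation test, p = 0.3).

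Among the focal adhesion and stress fibre genes, none of 8 passed an adjusted p of 0.05 and 1 passed an unadjusted p of 0.05. NEXN, a filament-binding protein of adhesions and muscle Z-discs, was 3.94, 9.24 and 7.69 FPKM in shNC and 16.55, 11.82 and 12.79 FPKM in shPQBP1 samples. Its highest and lowest values were both in samples numbered 1, and without shNC 1 the log2 fold change moved from 1.04 to 0.68 (limma adjusted p = 0.134 and 0.0974). VCL, vinculin, was 30.17 to 30.79 FPKM in shNC and 27.52 to 28.69 FPKM in shPQBP1 samples, a small separation with a log2 fold change of -0.11 (95% interval -0.26 to 0.05). TLN1, talin, which couples integrins to actin, was 46.95 to 52.68 FPKM in shNC and 49.49 to 56.87 FPKM in shPQBP1 samples, and ZYX, zyxin, was 19.85 to 22.87 and 17.57 to 20.98 FPKM. PALLD, an actinin-binding scaffold, and PDLIM7, a PDZ and LIM domain protein, also overlapped between the groups. LIMA1, a filament-stabilising LIM protein, was 10.91, 15.46 and 25.66 FPKM in shNC and 17.71, 15.57 and 16.45 FPKM in shPQBP1 samples. PDLIM5, an adaptor of Z-discs and stress fibres, was 3.19, 8.81 and 3.47 FPKM in shNC and 4.56, 4.48 and 4.36 FPKM in shPQBP1 samples. In both genes 1 shNC sample stood away from the rest, and for PDLIM5 the log2 fold change was -0.05 with all samples and 0.41 without shNC 2.

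Of the 6 genes of filament assembly and disassembly, MTSS1 rose and the others did not pass the adjusted test. MTSS1 (ENSG00000170873) was 5.1, 5.34 and 5.3 FPKM in shNC samples 1, 2 and 3 and 8.85, 9.91 and 10.11 FPKM in shPQBP1 samples 1, 2 and 3. The shNC samples lay within 0.3 FPKM of each other, and the log2 fold change was 0.86 (SE 0.09, limma adjusted p = 0.0104). The adjusted p was above 0.05, at up to 0.0757, when shNC 3, shPQBP1 2 or shPQBP1 3 was left out. Of its transcript's 31-base words, 24.6% also belonged to the overlapping gene NDUFB9, which was 24.8, 19.64 and 15.47 FPKM in shNC and 17.02, 16.97 and 18.0 FPKM in shPQBP1 samples and overlapped between the groups. CFL1, cofilin, which severs old filaments, was 100.69, 93.82 and 95.69 FPKM in shNC and 72.67, 84.57 and 70.09 FPKM in shPQBP1 samples. All its shPQBP1 values were lower, with a log2 fold change of -0.36 (SE 0.09, limma unadjusted p = 0.00699, adjusted p = 0.0937). PFN1, profilin, which supplies actin monomers for growth, was 278.01 to 397.35 FPKM in shNC and 294.97 to 316.72 FPKM in shPQBP1 samples. ARPC2, a subunit of the branch-forming Arp2/3 complex, was 46.4 to 61.42 and 51.77 to 59.73 FPKM. The formins, which elongate unbranched filaments, overlapped as well: DIAPH1 was 37.84, 33.65 and 34.71 FPKM in shNC and 30.67, 33.79 and 32.1 FPKM in shPQBP1 samples, and DIAPH3 was 7.97, 13.35 and 11.07 FPKM in shNC and 14.6, 12.23 and 14.16 FPKM in shPQBP1 samples. The share of DIAPH3 in the formin sum also overlapped (23.3% ± 5.55 in shNC and 29.8% ± 2.92 in shPQBP1 samples, exact permutation test, p = 0.2).

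SRF, the transcription factor of the set, was 8.54, 8.25 and 7.33 FPKM in shNC and 5.71, 6.49 and 6.94 FPKM in shPQBP1 samples. Every shPQBP1 value was lower, with a log2 fold change of -0.33 (SE 0.11, limma unadjusted p = 0.0215, adjusted p = 0.146). Its ETS-family partner ELK3 rose. ELK3 was 18.65, 24.43 and 22.98 FPKM in shNC and 72.34, 70.9 and 74.45 FPKM in shPQBP1 samples, a log2 fold change of 1.72 (SE 0.11, limma adjusted p = 0.00389). The related ELK4 was 1.51, 3.13 and 3.22 FPKM in shNC and 4.52, 4.01 and 4.1 FPKM in shPQBP1 samples, at a limma adjusted p of 0.195, and ELK1 overlapped (3.12 to 6.51 and 5.04 to 5.48 FPKM). The coactivator MRTFA was 2.55, 2.74 and 2.71 FPKM in shNC and 2.18, 2.46 and 2.51 FPKM in shPQBP1 samples, with a log2 fold change of -0.16 and a limma adjusted p of 0.367. After correction for GC content and length the log2 fold change of MRTFA was 0.02 (limma adjusted p = 0.94). MRTFB was below the filter, with a mean of 0.883 FPKM in shNC and 0.76 FPKM in shPQBP1 samples.

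**Figure D4:**
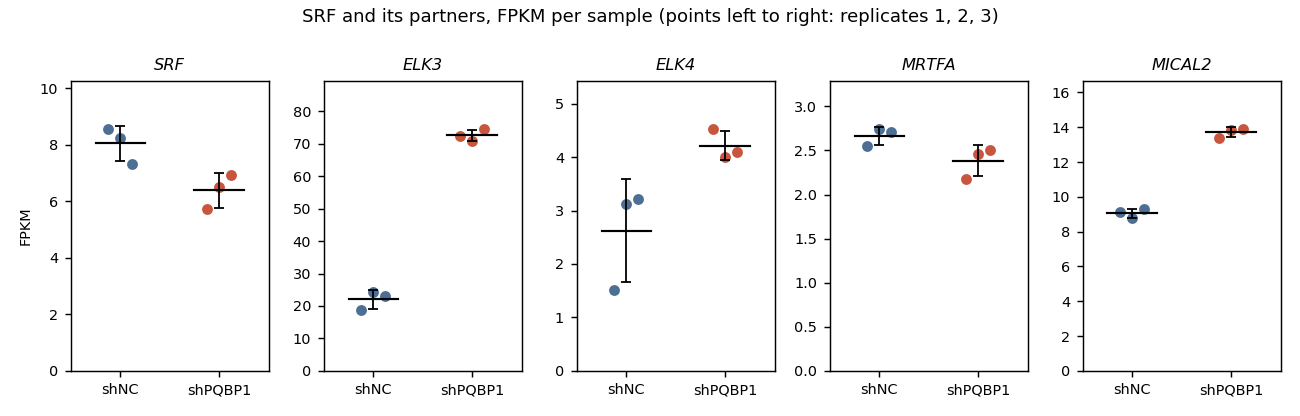
FPKM of SRF, its ETS-family partners ELK3 and ELK4, the coactivator MRTFA and the actin-oxidising enzyme MICAL2 in each sample; points from left to right are replicates 1, 2 and 3, lines the group means and bars the SD (n = 3). ELK3 lies at 18.65 to 24.43 FPKM in shNC and 70.9 to 74.45 FPKM in shPQBP1 samples, while SRF and MRTFA are slightly lower in the shPQBP1 samples.

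ELK3, ELK4 and MRTFA belong to a wider list of 151 other genes of actin assembly, crosslinking, signalling, SRF control and adhesion. Of these, 149 were in the table and 124 were tested, with a median log2 fold change of 0.02. At an adjusted p under 0.05, 2 of 124 (1.61%) differed, ELK3 and MICAL2, both higher. At an unadjusted p under 0.05, 31 (25%) differed, 16 higher and 15 lower, and the groups did not overlap in 44 (35.5%), shares beside the 2.91%, 23.6% and 34.4% of all genes tested. MICAL2, a monooxygenase that oxidises actin and disassembles filaments, was 9.14, 8.77 and 9.28 FPKM in shNC and 13.37, 13.86 and 13.88 FPKM in shPQBP1 samples. Its log2 fold change was 0.59 (SE 0.07, limma adjusted p = 0.0181), and the adjusted p was above 0.05, at up to 0.108, when any sample other than shNC 1 was left out. After correction for GC content and length, 12 of the 124 had an adjusted p under 0.05, beside 938 of 11385 genes.

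The next 12 genes by p held 4 that were higher and 8 that were lower in the shPQBP1 samples, at adjusted p of 0.068 to 0.131 from limma. Those higher were MYO1E, a class I myosin (10.02 ± 0.421 and 12.7 ± 0.359 FPKM in shNC and shPQBP1 samples, SD, n = 3 each), CAPG, a filament-capping protein (67.0 ± 6.70 and 92.5 ± 10.1 FPKM), the formin FMNL2 (21.9 ± 5.42 and 35.9 ± 1.62 FPKM), and ROCK2, a kinase that activates myosin II (4.78 ± 1.47 and 8.73 ± 1.39 FPKM). FMNL2 and ROCK2 had their lowest values in shNC 1. Without that sample the log2 fold change was smaller, 0.52 in place of 0.74 for FMNL2 and 0.61 in place of 0.89 for ROCK2. The limma adjusted p was then 0.024 for FMNL2 and 0.085 for ROCK2. Those lower were the class I myosin MYO1C (25.3 ± 2.61 and 18.6 ± 0.899 FPKM), cortactin CTTN (46.2 ± 1.91 and 33.5 ± 4.69 FPKM), ezrin EZR, which ties filaments to the membrane (168.8 ± 17.2 and 130.1 ± 8.35 FPKM), synaptopodin SYNPO (5.74 ± 0.341 and 4.29 ± 0.455 FPKM), ABLIM1 (2.99 ± 0.255 and 2.21 ± 0.142 FPKM), the cofilin phosphatase SSH3 (1.86 ± 0.23 and 1.15 ± 0.212 FPKM), MYPN (1.43 ± 0.141 and 0.977 ± 0.11 FPKM) and the cofilin relative DSTN (34.3 ± 0.69 and 29.7 ± 0.377 FPKM).

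The direction of the members went with the base composition of their transcripts. The 6 members higher at an unadjusted p under 0.05 had a median GC content of 42.9% (37.1% to 47.8%), and the 7 that were lower had 58.9% (50.9% to 62.3%). Across the 38 tested members, Spearman's correlation between log2 fold change and GC content was -0.636, and across 11385 tested genes with a transcript it was -0.459. Genes share libraries and are not independent replicates, so these values are descriptions. After removal of the trend on GC content and length from each sample, the correlation among the members was -0.271. The median log2 fold change was then 0.03 for the members and 0.03 for all genes. At a limma adjusted p under 0.05, 3 of 38 members differed, beside 938 of 11385 genes. That share of the members was no higher than the share of all genes. TPM4, MTSS1 and MYL12A kept log2 fold changes of 1.25, 0.87 and 0.36. The differences of NEXN (0.79, limma adjusted p = 0.0668), CALD1 (0.40), MYL9 (-0.24), CFL1 (-0.22), TPM1 (-0.21), SRF (-0.16), FLNC (-0.16) and ACTN1 (-0.10) were smaller than without the correction. Those of ACTB (0.33), TAGLN (0.30), ACTA2 (0.27) and TLN1 (0.21) were larger. These 4 then had an unadjusted p under 0.05, which SRF and ACTN1 no longer had. At that threshold 15 members were counted, and the share of all genes was not computed. The part of GC content in them was not tested further.

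**Figure D5:**
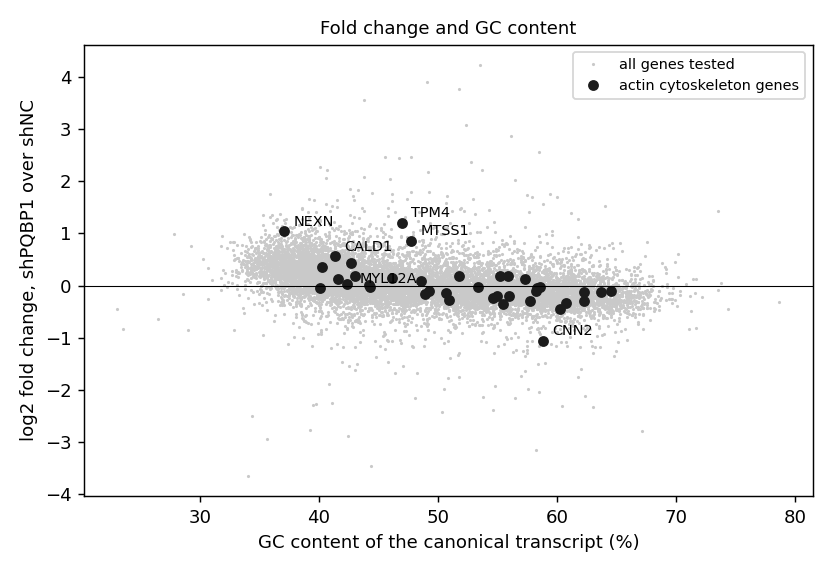
Log2 fold change, shPQBP1 over shNC, against the GC content of 1 canonical transcript per gene; small grey points are the 11385 tested genes with a transcript and large black points the 38 tested actin cytoskeleton genes. Most members with a low GC content, such as NEXN and CALD1, lie above 0, though PDLIM5 and TPM3 lie slightly below. Most with a high GC content lie below 0, as in the grey cloud, while TPM4 lies far above 0 at a GC content of 47.0%.

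The summed FPKM of all 39 members was 2867.27, 2572.75 and 2481.69 in shNC and 2617.96, 2842.2 and 2646.22 in shPQBP1 samples. The groups overlapped (2641 ± 202 and 2702 ± 122 FPKM, SD, n = 3 each, exact permutation test, p = 0.6). The summed FPKM of all genes was 294970 to 318484 in shNC and 278286 to 287423 in shPQBP1 samples. Of this total the members took 0.900%, 0.872% and 0.816% in shNC and 0.926%, 0.989% and 0.951% in shPQBP1 samples. This share was thus higher in the shPQBP1 samples without overlap, and its difference was not tested.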

How the data were processed

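Poly(A) RNA of 3 shNC and 3 shPQBP1 HEY samples was sequenced in pairs. Per the submitters' processing notes, alignment to hg38 used HISAT2 2.2.0, sorting SAMtools 1.9, transcript reconstruction StringTie 1.3.0 and the group comparison edgeR. The authors deposited the resulting FPKM, per gene and sample, in 1 table. The annotation release is not given in the sources used here. The fold change and p-value columns of the authors' own comparison in that table were not used.

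FPKM values were taken as deposited and tested on log2(FPKM + 0.1) by the moderated linear model of limma 3.58.1 (R 4.3.3, eBayes with trend), two-sided. A gene needed a mean of 1 FPKM or more. Shares within gene families were compared with exact permutation tests over the 6 samples (Python 3.11.15, numpy 2.4.6). Spearman's correlations were computed with scipy 1.17.1. Nothing beyond the description as biological triplicates says that samples came from separate cultures, so the p-values measure the spread between these samples, which may be technical. The depth is unknown, so no counting interval is given.

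GC content, length and 31-base words came from 1 canonical transcript per gene of GENCODE release 44, and promoter windows from RefSeq (GRCh38.p14). The correction removed from each sample's log2 values the trend on GC content and log length (natural splines, 5 degrees of freedom each). The members, the lists and the tests were chosen with earlier results of these data known. Members were described with every sample's value where they had an unadjusted p under 0.05, a fold over 1.5 or belonged to a listed family, and other actin genes where they had an adjusted p under 0.05 or were among the next 12 by p. LIMA1, PDLIM5, ELK1, ELK4, MRTFA and MRTFB were added after their values were seen. Alternatives were other scalings, filters and pseudocounts, no trend, a replicate block, the GC correction and each sample left out. The main limma fit was tested on simulated data with planted changes and independent noise, without a trend on GC content. The other steps were not tested in this way.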

Additional observations from a re-analysis of the deposited data

How the results depend on the processing

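When samples were left out one by one, the number at an adjusted p under 0.05 lay between 30 and 466 for all genes, 1 and 4 for the members and 1 and 3 for the other actin pathway genes. At an unadjusted p under 0.05 it lay between 6 and 16 for the members and 16 and 36 for the other genes. The share of all genes at this threshold was not computed with samples left out, so these ranges cannot be read against it. The members at a fold over 2 numbered 2 to 3, and the median of the members lay between -0.081 and -0.0017. For all genes the adjusted count of 332 became 190 when any gene above 0 in 1 sample or more was tested, 211 at a mean FPKM of at least 10 and 938 after correction for GC content and length. At a mean of at least 10 FPKM, where fewer genes were tested, 8 members and 17 other genes had an unadjusted p under 0.05. Of the 38 members, 12 fell below that mean. The share of all genes at this setting was not computed, so these 2 counts cannot be read against it. Members at a fold over 2 numbered 1 with a pseudocount of 1 and 1 after the GC correction, which also moved the members' median to 0.0305 and the adjusted count of the other genes to 12.

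Same-numbered samples did not resemble each other: their deviations from the group means correlated at -0.186, -0.138 and -0.011. Samples with different numbers lay between -0.143 and 0.225. The deviations also carry each sample's dependence on GC content, so this check cannot show whether same-numbered samples were handled together. With the replicate number as a block, no gene had an adjusted p under 0.05 (0 of all genes, 0 members and 0 other genes in limma). An unadjusted p under 0.05 was found for 1840 of 11413 genes, among them 7 of 38 members and 18 of 124 other actin genes.

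The sign changed under some alternative in 12 of 38 members, none with a main log2 fold change larger than 0.12 in size. After the GC correction the log2 fold change was 0.124 for ACTN4, 0.0788 for MYL6, 0.0744 for MYH9, 0.114 for ZYX, 0.022 for FLNA, 0.124 for PDLIM7, 0.0781 for PFN1, -0.052 for PALLD and -0.0837 for LIMA1, and after quantile normalization it was -0.0413 for PALLD and -0.0169 for LIMA1. With single samples left out it ranged from -0.0898 to 0.0283 for ACTN4, -0.0876 to 0.0645 for TPM3, -0.109 to 0.0883 for MYL6, -0.121 to 0.0141 for MYH9, -0.0201 to 0.26 for MYLK, -0.0738 to 0.055 for PALLD, -0.305 to 0.414 for PDLIM5, -0.266 to 0.348 for LIMA1 and -0.225 to 0.033 for PFN1. The cause was not tested.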
